A study of Homo sapiens with 9 samples.

Results

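The matrix metalloproteinases (MMPs), the ADAM and ADAMTS proteases and the tissue inhibitors of metalloproteinases (TIMPs) were followed through 3 groups of OVCAR3 cells, an established human ovarian cancer line. The members were all protein-coding genes of the deposited count table whose symbol is MMP, TIMP, ADAM or ADAMTS followed by a digit. This gave 67 of the 58735 genes listed, of which 19951 are protein-coding: 24 MMP, 4 TIMP, 20 ADAM and 19 ADAMTS genes. One of them, MMP24OS, carries the MMP letters only because it lies opposite MMP24, and is not itself a metalloproteinase.

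The study lowered GPX3, which encodes a secreted glutathione peroxidase, and sequenced mRNA after 72 h of culture. Each group had 3 libraries. The control cells carried a scramble hairpin and are labelled wild type (WT), and the other groups, labelled GPX3 knock-down, carried hairpin 76 or hairpin 78 against GPX3 (sh76 and sh78). A short hairpin RNA is processed by the cell into a guide that lowers matching mRNAs, and all 3 groups carried one, so no group is free of a hairpin. Whether each group was a pool of cells or 1 clone is not given in the sources used here. Nothing in the labels says that replicates came from separate cultures, so the p-values measure only the spread between these libraries.

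MMPs and ADAMTS proteins are zinc proteases that act mainly on the extracellular matrix, MMPs on collagens, laminins and many other proteins and ADAMTS proteins mostly on proteoglycans and procollagens. ADAM proteins sit in the cell membrane, and those with an active site cut the outer parts off other membrane proteins, a process called shedding. TIMPs bind the active site of these proteases and block it, and TIMP3 also stays bound to the matrix. In ovarian cancer these enzymes are studied for their part in spread through the peritoneal cavity. RNA levels say nothing of how much of an enzyme is active, since most are made as inactive precursors.

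Libraries held 14652965 to 21327562 counts, so 1 CPM, a count scaled to library size, stood for 14.6 to 21 reads, and a count of 3, taken as the limit of detection for counting error only, was 0.141 to 0.205 CPM. The 67 members took 0.198% to 0.223% of the counts of a library. GPX3 was at 173, 109 and 117 CPM in the scramble libraries, at 56.7, 55.1 and 55.5 in sh76 and at 35.2, 28.4 and 28.2 in sh78, with no overlap between groups. Its log2 fold change was −1.25 in sh76 (edgeR adjusted p = 0.00264) and −2.12 in sh78 (edgeR adjusted p = 0.000125). All 9 markers of ovarian carcinoma epithelium, among them PAX8 and MUC16, were above 1 FPKM (fragments scaled for gene length and library size). Their summed level was 2030 to 2310 FPKM in scramble, 1780 to 2070 in sh76 and 1670 to 1830 in sh78. The sum was led by KRT8 (725 to 850 FPKM in scramble, 510 to 596 in sh78) and KRT18 (584 to 724, then 448 to 510). PAX8 (114 to 128 in scramble, 124 to 135 in sh78) and KRT7 (284 to 342, then 303 to 383) were not lower in sh78. Of 8 fibroblast markers, only COL1A1 averaged above 1 FPKM, and the list summed to 2.82 to 4.02, 3.12 to 5.68 and 3.48 to 4.77 FPKM in the same order. The top of that range was sh76 replicate 2, where COL3A1 reached 53 counts and LUM 3 counts, LUM being at 0 in the other libraries. None of 5 immune markers averaged 1 FPKM (sums of 0.394 to 0.818, 0.801 to 0.957 and 1.11 to 1.17), and of 4 endothelial markers only KDR did (sums of 2.17 to 2.48, 2.43 to 3.18 and 3.15 to 4.29). No marker was at 0 in all 9 libraries. The sums of these lists shifted between the groups, those of the fibroblast markers with overlap. Among immune markers, CD14 was higher in sh78 (0.338 to 0.731 FPKM in scramble, 0.878 to 1.09 in sh78), while PTPRC overlapped. CD68, CD3E and CD163 had at most 1, 6 and 1 counts in a library. Among endothelial markers, KDR was higher in sh78 (1.35 to 1.53, then 2.47 to 3.21), while PECAM1, VWF and CDH5 overlapped. The part of these shifts in the results below was not tested. In bulk RNA, fewer cells that express a gene and less RNA per cell cannot be told apart.

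The 250 bases before the RefSeq start site are shown for 5 members that passed the count filter, so that the motifs counted below can be seen in place. They come from the RefSeq promoter table (GRCh38.p14), which matched 40 of the 67 members. MMP15, MMP24 and ADAMTS12 are the members with a row that differed between the hairpins, and MMP10 and MMP7 belong to the MMP cluster of chromosome 11. Each sequence runs 5′ to 3′ in the direction of the gene. Capitals mark a motif, searched on both strands. The GC box was spelled GGGCGG. The letters of the TATA box were TATAAA. The AP-1 motif was spelled TGAGTCA, with its reverse complement TGACTCA counted as the same motif. No match overlapped one of another motif. The windows are chr16:58025504-58025753 (plus strand) for MMP15, chr20:35226440-35226689 (plus strand) for MMP24, chr5:33891991-33892240 (minus strand) for ADAMTS12, chr11:102780629-102780878 (minus strand) for MMP10 and chr11:102530748-102530997 (minus strand) for MMP7. RefSeq starts can differ from the starts of the counted genes. The counted MMP15, MMP24, ADAMTS12 and MMP7 genes start inside these windows, at 58025566, 35226654, 33892192 and 102530753. The ADAMTS12 GC box and all MMP15 GC boxes but that at −217 to −212 therefore lie inside the counted gene.
MMP15: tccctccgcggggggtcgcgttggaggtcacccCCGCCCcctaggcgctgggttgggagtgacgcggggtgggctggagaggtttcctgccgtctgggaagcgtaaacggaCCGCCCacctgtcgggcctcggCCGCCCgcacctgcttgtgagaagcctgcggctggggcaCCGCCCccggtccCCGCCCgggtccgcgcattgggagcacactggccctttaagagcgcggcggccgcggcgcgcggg
MMP24: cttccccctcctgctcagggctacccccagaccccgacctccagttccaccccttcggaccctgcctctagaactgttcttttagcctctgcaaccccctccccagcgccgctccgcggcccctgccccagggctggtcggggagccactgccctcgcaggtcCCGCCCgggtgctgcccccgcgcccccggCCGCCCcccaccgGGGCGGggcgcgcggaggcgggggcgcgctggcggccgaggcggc
ADAMTS12: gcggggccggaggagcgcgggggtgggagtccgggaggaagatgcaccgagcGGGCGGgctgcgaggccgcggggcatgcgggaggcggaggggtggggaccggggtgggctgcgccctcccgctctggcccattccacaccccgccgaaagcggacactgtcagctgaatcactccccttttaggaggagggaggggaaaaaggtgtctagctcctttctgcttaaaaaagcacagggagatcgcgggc
MMP10: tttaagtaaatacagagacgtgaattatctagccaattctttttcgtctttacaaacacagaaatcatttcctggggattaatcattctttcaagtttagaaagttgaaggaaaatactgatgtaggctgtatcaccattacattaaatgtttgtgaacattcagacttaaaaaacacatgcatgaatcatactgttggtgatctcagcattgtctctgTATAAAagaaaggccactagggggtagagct
MMP7: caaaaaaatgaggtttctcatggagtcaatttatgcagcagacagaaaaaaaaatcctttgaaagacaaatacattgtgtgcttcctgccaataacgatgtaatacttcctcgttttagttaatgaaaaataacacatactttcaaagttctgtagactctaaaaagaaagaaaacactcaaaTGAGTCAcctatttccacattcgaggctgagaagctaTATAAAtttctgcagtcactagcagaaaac

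MMP15, the member with the highest mean FPKM, had 5 GC boxes and a GC content of 74.8%. MMP24 had 3 GC boxes and 77.6% GC, and ADAMTS12 had 1 and 68.4%. MMP10 and MMP7 held a TATA box, at −31 to −26 and −30 to −25 from the RefSeq start, and GC contents of 34.4% and 33.6%. MMP7 also held an AP-1 motif at −67 to −61. A GC box was present in 21 of the 25 matched members that passed the count filter (84.0%), in 6 of the 15 below it (40.0%) and in 42.6% of all 35116 promoters in the table. The median GC content was 73.6%, 52.4% and 58.0% in these 3 sets. A TATA box was present in 12.0%, 26.7% and 10.7%, and an AP-1 motif in 4.0%, 0.0% and 4.2%. The set of all promoters was not limited to genes that passed the count filter. Whether these shares differ from those of all genes that passed it was not tested. A match is a description of the letters and not evidence of a bound factor.

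Levels between genes were compared in FPKM, which divides by the deposited gene length, so the ranking depends on that length. It was 16168 bases for ADAM10 and 4419 for MMP15, and in CPM ADAM10 was the higher (537 against 209). Of the 67 members, 18 averaged at least 1 FPKM over the 9 libraries and 8 averaged at least 10. The highest was MMP15, a membrane-anchored MMP, at 47.1 FPKM, followed by the membrane protease ADAM9 at 44.9, the inhibitor TIMP2 at 38.4, ADAM15 at 33.8, the sheddase ADAM10 at 33.0, the proteoglycanase ADAMTS15 at 28.2, TIMP3 at 22.9 and the proteoglycanase ADAMTS1 at 16.2. TIMP1 (7.89) and ADAM17 (6.79), the sheddase of TNF and of several EGF receptor ligands, came next. MMP24OS averaged 3.06 FPKM. The MMPs most often named in tumour invasion were low: MMP2 (gelatinase) averaged 0.421 FPKM, MMP9 (the other gelatinase) 0.32, MMP7 (matrilysin) 0.246 and MMP14, a membrane-type MMP that activates the MMP2 precursor, 0.179. MMP10, a stromelysin, was the highest secreted MMP at 3.96 FPKM. MMP8, MMP26, MMP27, ADAM7, ADAM30 and ADAMTS17 had no count in any library. The plot of levels by library shows these groups within each family.

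**Figure D1:**
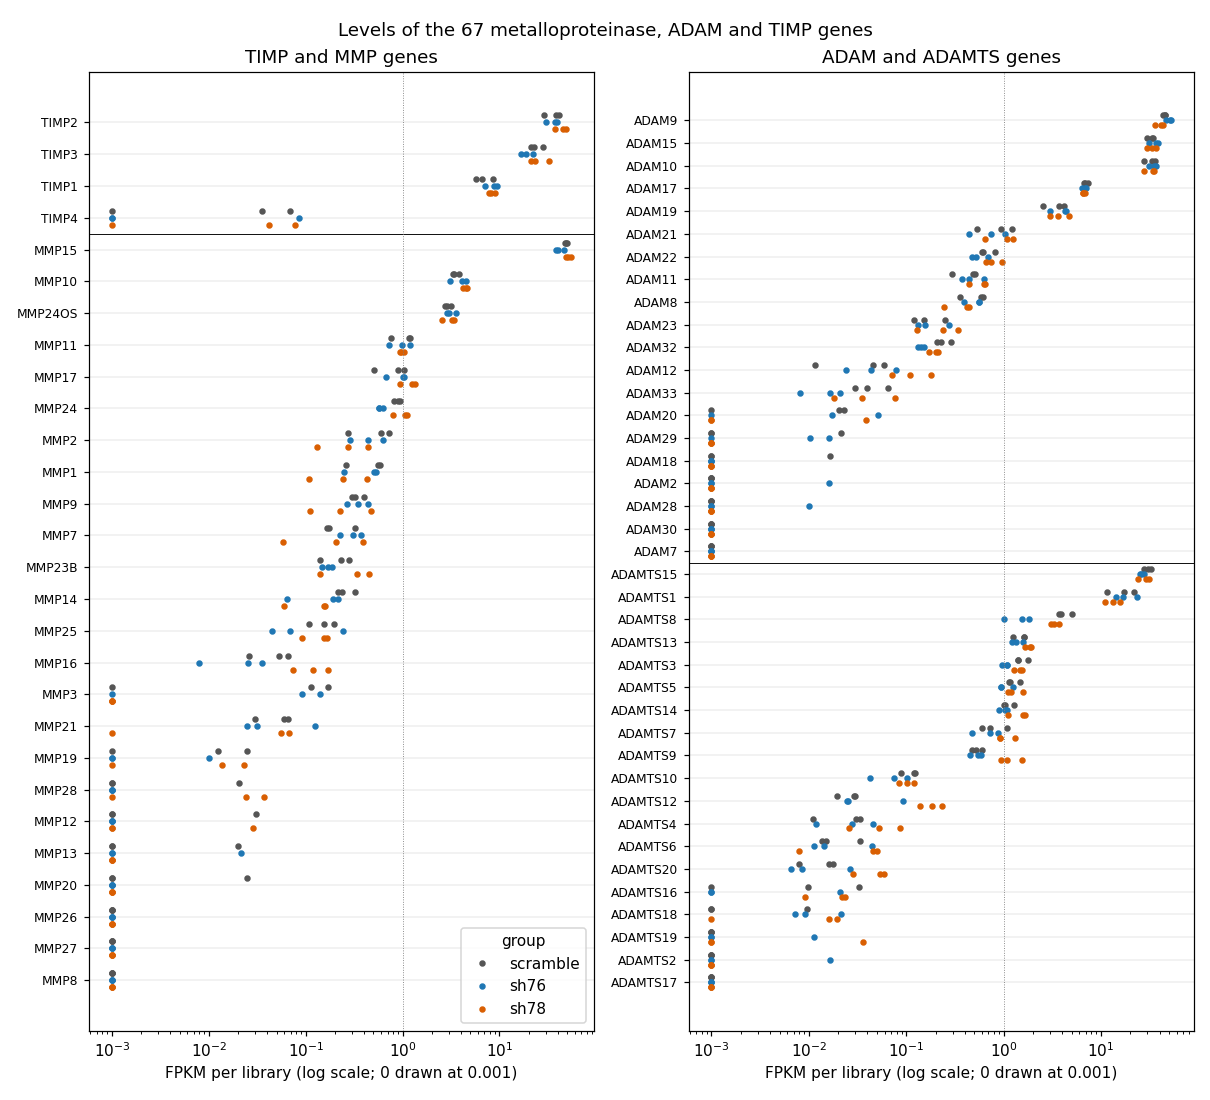
FPKM in each of the 9 libraries for all 67 members (log axis, 0 drawn at 0.001), as 1 point per library coloured by group and ordered by mean level within each family. TIMP2, TIMP3, MMP15, ADAM9, ADAM15, ADAM10, ADAMTS15 and ADAMTS1 lie above 10 FPKM on average, and 6 members sit at 0 in every library.

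Members that are close on a chromosome differed widely in level. On chromosome 11 (GRCh38, 102520508 to 102955734), 9 MMP genes lie within 435 kb, and MMP7, MMP10 and MMP1 passed the count filter while MMP20, MMP27, MMP8, MMP3, MMP12 and MMP13 did not. Farther along the same chromosome, ADAMTS8 and ADAMTS15 lie within 72 kb (130404925 to 130476641) and averaged 3.01 and 28.2 FPKM. ADAMTS1 and ADAMTS5 lie within 131 kb on chromosome 21 and averaged 16.2 and 1.20 FPKM.

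The test was edgeR's quasi-likelihood test on the counts, with p adjusted over all 17023 genes that passed the filter and a call at an adjusted p under 0.05. Of the members, 40 passed: 14 MMP, 3 TIMP, 12 ADAM and 11 ADAMTS genes. The other 27 had too few counts. Of the 40, 30 were above the filter level of 0.589 CPM in all 9 libraries. ADAMTS12 was above it in 0 scramble, 1 sh76 and 3 sh78 libraries, MMP16 in 2, 0 and 3 and ADAM12 in 1, 1 and 3, so these 3 members passed mainly through sh78, and the counts of members below include them. Replicates with the same number deviated together across the groups, so values from a second model, in which the replicate number was a block, are given where they change a call. The 2 comparisons with scramble share their control libraries and are set side by side only.

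In sh76 against scramble, 1 of 40 members was called, ADAMTS8, which was lower; 3.58% of all genes tested were called. In sh78 against scramble, 2 of 40 were called, ADAMTS9 and ADAMTS12, both higher, against 4.41% of all genes. Between the hairpins, sh78 against sh76, 7 of 40 were called against 3.7% of all genes. Of these, ADAMTS8, ADAMTS9, ADAMTS12, MMP15, MMP16 and MMP24 were higher in sh78 (1.97% of all genes were called higher) and ADAM9 was lower (1.72% were called lower). ADAMTS12 and MMP16 passed the count filter mainly through sh78, which favours their being called higher there. No member was called in the same direction by both hairpins, against 1.32% of all genes. That count of 0 was the same with DESeq2, and no member had an unadjusted edgeR p under 0.05 in both comparisons with the same sign. Unadjusted p under 0.05 was met by 6, 5 and 13 members in the 3 comparisons, and by 17.4%, 17.5% and 16.3% of all genes tested.

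The count of 7 between the hairpins moved with single libraries. It was 2 without sh76 replicate 2 or without sh78 replicate 1, 3 without sh78 replicate 3, and 4 without scramble replicate 2, sh76 replicate 3 or sh78 replicate 2. The single call in sh76 became 2 without sh76 replicate 1. With limma on log2 FPKM, 2 of the 7 were called, ADAMTS8 and ADAMTS9. With the replicate block, 9 members were called in sh76 (2 higher and 7 lower, 20.4% of all genes called), 11 in sh78 (7 higher and 4 lower, 19.9%) and 17 between the hairpins (14 higher and 3 lower in sh78, 18.3%). With the block, ADAMTS8 was the only member called lower by both hairpins, and 8.29% of all genes were called in the same direction by both. CPM values did not overlap between groups for 7 members in sh76 against scramble (22.5% of all genes tested), 9 in sh78 against scramble (21.5%) and 12 between the hairpins (21.8%).

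The median log2 fold change of the 40 members was −0.10 in sh76, 0.08 in sh78 and 0.30 for sh78 against sh76, and that of all genes tested was 0.01, 0.01 and 0.00. Between the hairpins, 26 of the 40 were above 0, and the median size of the log2 fold change was 0.39 against 0.14 over all genes. By family, the medians for sh78 against sh76 were 0.45 for ADAMTS genes (10 of 11 above 0) and 0.30 for TIMPs (2 of 3). They were 0.09 for ADAM genes (6 of 12) and 0.08 for MMP genes with MMP24OS counted among them (8 of 14). These are descriptions of sets that include low-count genes, whose fold changes are wider. They also include ADAMTS12, MMP16 and ADAM12, which passed the count filter mainly through sh78.

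**Figure D2:**
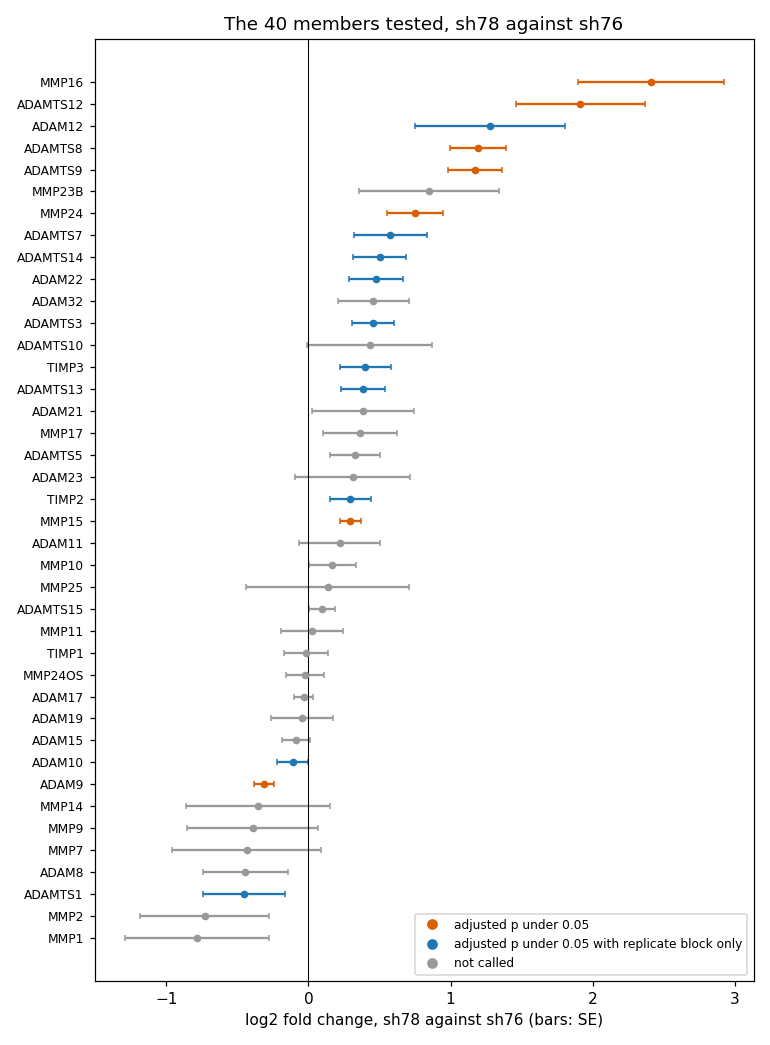
Log2 fold change of sh78 against sh76 with its standard error for the 40 members tested, coloured by whether the call was made without the block, only with the block, or not made. MMP16 (2.41) and ADAMTS12 (1.91) lie farthest to the right with wide bars. ADAM9 (−0.31) is the only member called without the block to the left of 0, and ADAMTS1 and ADAM10, called only with the block, also lie there.

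Among the inhibitors, TIMP2 was at 164, 217 and 233 CPM in scramble, 171, 211 and 220 in sh76 and 213, 272 and 255 in sh78. The groups overlapped, and in each group replicate 1 was the lowest. Its log2 fold change in sh78 was 0.27 ± 0.14 (SE; edgeR adjusted p = 0.389, or 7.59e-06 with the replicate block), and between the hairpins 0.30 ± 0.14 (edgeR adjusted p = 0.356, or 1.82e-06 with the block). The same-numbered log2 ratios of sh78 over sh76 were 0.317, 0.367 and 0.211.

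TIMP3 was at 97.7, 130 and 105 CPM in scramble, 77.3, 103 and 87.5 in sh76 and 107, 150 and 96.8 in sh78. The groups overlapped, with replicate 2 the highest of each. TIMP3 was not called in sh76 (log2 fold change −0.31 ± 0.18, edgeR adjusted p = 0.427) and was called lower with the block (edgeR adjusted p = 0.000164). Between the hairpins the values were 0.40 ± 0.18 (edgeR adjusted p = 0.318, or 5.89e-06 with the block). TIMP1, a soluble inhibitor, was at 10.8 ± 2.21 CPM in scramble, 13.0 ± 1.82 in sh76 and 12.9 ± 0.948 in sh78 (SD, n = 3) and was called in no comparison with or without the block. TIMP4 had at most 3 counts in a library and was not tested, and 10.3% of its exon bases are shared with SYN2 on the other strand.

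MMP15 (ENSG00000102996, chromosome 16, 58025566 to 58046901) was at 222, 209 and 212 CPM in scramble, 207, 172 and 179 in sh76 and 243, 216 and 225 in sh78. All 3 sh76 libraries lay below all scramble and sh78 libraries. It was 1.23-fold higher in sh78 than in sh76 (log2 fold change 0.29 ± 0.07, edgeR adjusted p = 0.0411). That call held without scramble replicate 1 or sh76 replicate 1, and without each of the other libraries the edgeR adjusted p was 0.0514 to 0.189. In sh76 against scramble the log2 fold change was −0.21 ± 0.07 (edgeR adjusted p = 0.155, or 0.000323 with the block and 0.0387 without sh76 replicate 1).

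MMP24 (ENSG00000125966, chromosome 20, 35226654 to 35277000), a membrane-type MMP known from the nervous system, was at 3.66, 4.16 and 3.96 CPM in scramble, 2.77, 2.56 and 2.52 in sh76 and 4.68, 3.57 and 4.93 in sh78. The sh76 libraries were the lowest 3 of the 9, while scramble and sh78 overlapped. It was 1.68-fold higher in sh78 than in sh76 (log2 fold change 0.75 ± 0.19, edgeR adjusted p = 0.0484). The call held without scramble replicate 1 or sh78 replicate 2 and was lost without each other library (edgeR adjusted p 0.0645 to 0.17) and without the low-count filter (0.0541). In sh76 against scramble the edgeR adjusted p was 0.125, or 0.028 with the block. The value is uncertain, because 799 exon bases of MMP24 (18.1%) are shared with MMP24OS on the other strand and the libraries do not keep strand. MMP24OS was at 16.3 ± 1.18, 17.5 ± 2.03 and 17.1 ± 2.59 CPM (SD, n = 3) in scramble, sh76 and sh78 and was not called. The shared bases are 14.5% of the MMP24OS exons, so its values are uncertain too.

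MMP16 (ENSG00000156103), also membrane-anchored, was a low-count gene with 5, 11 and 14 counts in scramble, 5, 2 and 9 in sh76 and 39, 21 and 14 in sh78. In CPM these were 0.321, 0.644 and 0.802, then 0.308, 0.0968 and 0.429, then 2.10, 1.44 and 0.908. The sh78 libraries were the highest 3. In sh76 replicate 2, the 2 counts lay under the 3-count limit of detection. The log2 fold change between the hairpins was 2.41 ± 0.51 (edgeR adjusted p = 0.0186). The call was lost without sh76 replicate 2 (edgeR adjusted p = 0.0926), sh78 replicate 1 (0.0942) or sh78 replicate 2 (0.0544). Against scramble, sh78 gave 1.32 (edgeR adjusted p = 0.14, or 0.027 with the block).

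The other MMPs named for their role in invasion were not called without the block. MMP2 was at 2.61 ± 1.14 CPM in scramble, 2.25 ± 0.866 in sh76 and 1.40 ± 0.777 in sh78 (SD, n = 3), with a log2 fold change of −0.94 in sh78 (edgeR adjusted p = 0.317, or 0.00904 with the block). MMP14 was at 1.15 ± 0.249, 0.705 ± 0.367 and 0.556 ± 0.249 CPM in the same order (log2 fold change −1.08 in sh78, edgeR adjusted p = 0.264). MMP10, at 6.16 ± 0.503, 6.97 ± 1.34 and 7.85 ± 0.444 CPM, and MMP7 and MMP9, both under 1 CPM on average in every group, were not called with or without the block. MMP17, anchored to the membrane by a lipid, was called only with the block, higher in sh78 than in scramble (0.52, edgeR adjusted p = 0.341, or 0.0319 with the block).

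**Figure D3:**
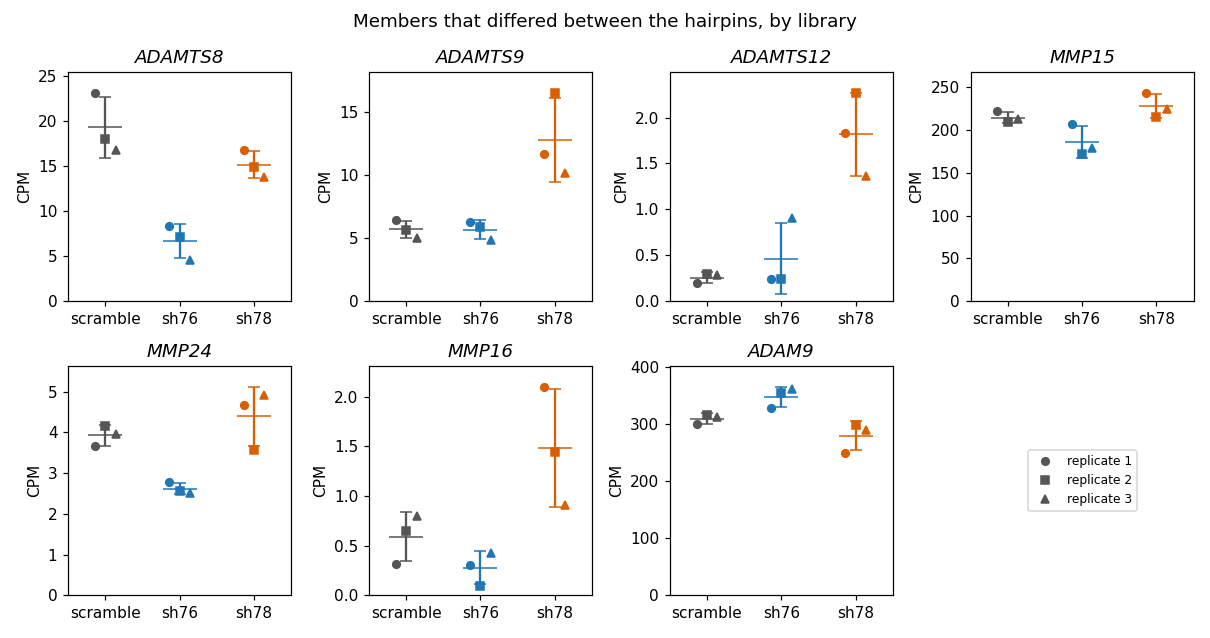
CPM in each library for the 7 members called between the hairpins, with the group mean and SD (horizontal bar and whiskers, n = 3) and 1 symbol per replicate number. ADAMTS8 is lowest in sh76, ADAMTS9 and ADAMTS12 are highest in sh78, and ADAM9 runs from sh78 (279 on average) through scramble (310) to sh76 (347).

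Among the membrane proteases, ADAM9 (ENSG00000168615) was at 299, 317 and 313 CPM in scramble, 327, 354 and 361 in sh76 and 250, 298 and 290 in sh78. The 3 groups did not overlap: sh76 was above scramble, and sh78 was below it. Between the hairpins it was 0.804-fold (log2 fold change −0.31 ± 0.07, edgeR adjusted p = 0.0235). The call was lost without sh76 replicate 2 (edgeR adjusted p = 0.102), sh76 replicate 3 (0.0882), sh78 replicate 1 (0.0881) or sh78 replicate 3 (0.0502). Against scramble, the log2 fold changes were 0.17 in sh76 (edgeR adjusted p = 0.233, or 0.0034 with the block) and −0.15 in sh78 (edgeR adjusted p = 0.294, or 0.00769 with the block).

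The main sheddases were not called without the block. ADAM10 was at 525 ± 66.5 CPM in scramble, 564 ± 48.5 in sh76 and 522 ± 66.4 in sh78 (SD, n = 3), and the difference between the hairpins was −0.11 on the log2 scale (edgeR adjusted p = 0.7, or 0.0397 with the block). ADAM17 was at 75.2 ± 3.56, 73.3 ± 3.57 and 71.6 ± 2.01 CPM and was called in no comparison with or without the block. Its exons share 12.3% of their bases with IAH1 on the other strand. ADAM15 was at 215 ± 16.6, 235 ± 26.7 and 221 ± 25.3 CPM and was called only with the block, in sh76 against scramble (0.13, edgeR adjusted p = 0.543, or 0.0293 with the block).

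The other ADAM genes that passed the threshold with the block and not in the fit without it were lower in level. ADAM12, linked to shedding of EGF receptor ligands, had 7, 10 and 2 counts in scramble, 7, 16 and 5 in sh76 and 20, 26 and 11 in sh78 (log2 fold change of 1.62 in sh78 against scramble, edgeR adjusted p = 0.133, or 0.00638 with the block and 0.0425 without the low-count filter). Its 2 counts in scramble replicate 3 lay under the 3-count limit of detection. Between the hairpins ADAM12 differed by 1.28 (edgeR adjusted p = 0.236, or 0.0243 with the block). ADAM22, which lacks an active site and binds LGI1 at synapses, differed by 0.47 between the hairpins (edgeR adjusted p = 0.226, or 0.00594 with the block). ADAM32 differed by −0.74 in sh76 against scramble (edgeR adjusted p = 0.121, or 0.0362 with the block).

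The 5 member calls kept in all 16 alternative fits were in ADAMTS8, ADAMTS9 and ADAMTS12. ADAMTS8 and ADAMTS9 each enter through both of their calls, which share libraries, and ADAMTS12 passed the count filter mainly through sh78. The share of calls kept in all fits was not computed over all genes, so this count is not read as a trait of the family. ADAMTS8 (ENSG00000134917, chromosome 11, 130404925 to 130428993), a secreted protease first described as inhibiting blood vessel growth, was at 23.1, 17.9 and 16.7 CPM in scramble, 8.38, 7.06 and 4.57 in sh76 and 16.7, 14.8 and 13.8 in sh78. The sh76 libraries were the lowest 3 by a wide gap. It fell to 0.344-fold in sh76 (log2 fold change −1.54 ± 0.19, edgeR adjusted p = 0.000931) and was 2.29-fold higher in sh78 than in sh76 (1.19 ± 0.20, edgeR adjusted p = 0.00435). Both calls held in all 16 alternative fits. The log2 fold change in sh78 against scramble was −0.34 ± 0.18 (edgeR adjusted p = 0.366, or 0.0157 with the block). Its neighbour ADAMTS15 was at 172 ± 13.7, 150 ± 6.48 and 161 ± 21.7 CPM (SD, n = 3) and was called only with the block, in sh76 (−0.19, edgeR adjusted p = 0.294, or 0.00555 with the block).

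ADAMTS9 (ENSG00000163638, chromosome 3, 64515654 to 64688000), which cuts versican and aggrecan, was at 6.42, 5.62 and 5.04 CPM in scramble, 6.28, 5.90 and 4.86 in sh76 and 11.7, 16.5 and 10.2 in sh78. Scramble and sh76 overlapped fully and all sh78 libraries were higher. It rose 2.24-fold in sh78 against scramble (log2 fold change 1.17 ± 0.19, edgeR adjusted p = 0.00312) and 2.25-fold against sh76 (1.17 ± 0.19, edgeR adjusted p = 0.00364), and both calls held in all 16 alternative fits. In sh76 against scramble the value was −0.01 (edgeR adjusted p = 0.995).

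ADAMTS12 (ENSG00000151388, chromosome 5, 33523535 to 33892192), known to cut cartilage oligomeric matrix protein, had 3, 5 and 5 counts in scramble, 4, 5 and 19 in sh76 and 34, 33 and 21 in sh78. In CPM these were 0.193, 0.293 and 0.287, then 0.246, 0.242 and 0.905, then 1.83, 2.27 and 1.36. Scramble replicate 1 was at the 3-count limit, sh76 replicate 3 stood above the other sh76 libraries, and the sh78 libraries were the highest 3. It rose 6.85-fold in sh78 against scramble (log2 fold change 2.78 ± 0.51, edgeR adjusted p = 0.0066), a call kept in all 16 alternative fits. Between the hairpins the log2 fold change was 1.91 ± 0.45 (edgeR adjusted p = 0.0315). That call held without scramble replicate 1, scramble replicate 3 or sh76 replicate 3, and without each other library the edgeR adjusted p was 0.0507 to 0.14. Without sh76 replicate 3 the log2 fold change was 2.86.

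Several other ADAMTS genes missed the threshold in the fit without the block and passed it with the block. ADAMTS3, a procollagen protease, was at 10.3, 12.8 and 10.0 CPM in scramble, 6.96, 7.84 and 7.77 in sh76 and 10.6, 11.1 and 9.27 in sh78. All sh76 libraries were below the others. Its log2 fold change in sh76 was −0.55 ± 0.14 (edgeR adjusted p = 0.0507, or 0.00102 with the block), and the adjusted p was 0.0192 with DESeq2, 0.0499 with edgeR on RLE factors and 0.0286 with edgeR without the low-count filter. Between the hairpins it differed by 0.45 (edgeR adjusted p = 0.107, or 0.00744 with the block).

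ADAMTS1 was at 156, 122 and 80.9 CPM in scramble, 169, 121 and 101 in sh76 and 113, 94.8 and 77.5 in sh78. In each group replicate 1 was the highest and replicate 3 the lowest, and the groups overlapped. The log2 fold change was −0.33 ± 0.29 in sh78 against scramble (edgeR adjusted p = 0.65, or 0.000418 with the block) and −0.45 ± 0.29 between the hairpins (edgeR adjusted p = 0.529, or 3.78e-06 with the block).

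Between the hairpins, ADAMTS7, which also cuts cartilage oligomeric matrix protein, differed by 0.58 (edgeR adjusted p = 0.282, or 0.00249 with the block). The procollagen protease ADAMTS14 differed by 0.50 (edgeR adjusted p = 0.178, or 0.0128 with the block). ADAMTS13, which cuts von Willebrand factor, differed by 0.39 (edgeR adjusted p = 0.227, or 0.0276 with the block). ADAMTS7 was also called with the block in sh78 against scramble (0.38, edgeR adjusted p = 0.504, or 0.0427 with the block).

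**Figure D4:**
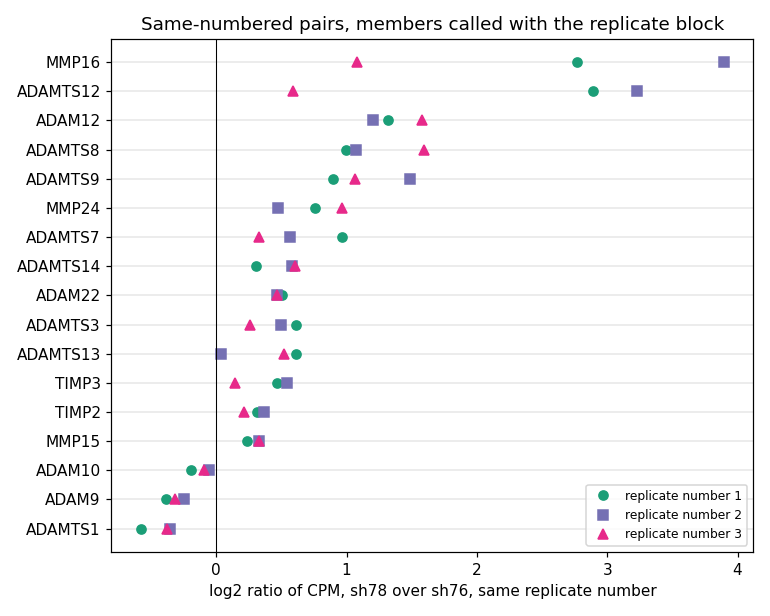
Log2 ratio of CPM, sh78 over sh76, in each same-numbered pair of libraries for the 17 members called between the hairpins with the replicate block. All 3 pairs lie on one side of 0 for each member, which the choice of members favours, and MMP16 and ADAMTS12 spread the most between pairs.

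A list of 49 regulators and substrates of these enzymes was followed with the members, and 45 passed the count filter. It held activators and inhibitors such as FURIN, PLAU and RECK, partners of ADAM10 and ADAM17 such as the tetraspanins and RHBDF2, and substrates such as NOTCH1, CDH1, CD44, VCAN and the basement membrane collagens. In sh76 against scramble 2 were called, CD44 and PLAU, both higher. In sh78 against scramble 2 were called, COL4A2 higher and EPCAM lower. Between the hairpins 4 were called, COL4A1 and COL4A2 higher and CD44 and PLAU lower in sh78. The shares of all genes called, 3.58%, 4.41% and 3.7%, are given above for the members. With the block, 15 (10 higher, 5 lower), 14 (7 higher, 7 lower) and 17 (6 higher, 11 lower) were called, and 20.4%, 19.9% and 18.3% of all genes tested were called in that fit. The list's median log2 fold changes were 0.05, −0.04 and −0.07. Only genes called without the block are described below. Those called only with it include VCAN, L1CAM and ALCAM in sh78 against scramble. Their log2 fold changes there were 1.42 (edgeR adjusted p = 0.318, or 3.53e-12 with the block), 0.56 (0.566, or 5.12e-08) and −0.87 (0.153, or 9.05e-05).

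CD44, a hyaluronan receptor shed by ADAM10 and MMP14, was at 31.5, 36.4 and 46.3 CPM in scramble, 54.2, 65.0 and 71.7 in sh76 and 21.0, 22.8 and 29.8 in sh78. The 3 groups did not overlap, with sh76 above scramble and sh78 below. The log2 fold change was 0.74 ± 0.16 in sh76 (edgeR adjusted p = 0.0304), −0.64 ± 0.17 in sh78 (edgeR adjusted p = 0.0614, or 1.97e-09 with the block and 0.00387 by DESeq2) and −1.38 ± 0.17 between the hairpins (edgeR adjusted p = 0.00128). The sh76 call was lost without scramble replicate 1 (edgeR adjusted p = 0.0661), scramble replicate 2 (0.12), sh76 replicate 2 (0.112) or sh76 replicate 3 (0.0971). A call in sh78 against scramble appeared without scramble replicate 1 (edgeR adjusted p = 0.0269), sh76 replicate 1 (0.0376) or sh78 replicate 3 (0.0251).

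PLAU, the urokinase that turns plasminogen into the MMP-activating protease plasmin, was at 67.8, 66.7 and 78.5 CPM in scramble, 86.6, 110 and 103 in sh76 and 47.6, 62.9 and 54.7 in sh78. Its groups did not overlap either and stood in the same order as those of CD44. The log2 fold change was 0.50 ± 0.11 in sh76 (edgeR adjusted p = 0.0252), −0.37 ± 0.11 in sh78 (edgeR adjusted p = 0.0914, or 2e-04 with the block and 0.000849 without the low-count filter) and −0.86 ± 0.11 between the hairpins (edgeR adjusted p = 0.000921). The sh76 call was lost without scramble replicate 1 (edgeR adjusted p = 0.072), scramble replicate 2 (0.116), sh76 replicate 2 (0.127) or sh76 replicate 3 (0.0878). For sh78 against scramble, a call appeared without sh76 replicate 1 (edgeR adjusted p = 0.047) or sh78 replicate 2 (0.0486). Of its exon bases, 31.1% are shared with C10orf55 on the other strand, which had 197 counts over all libraries against 12065 for PLAU.

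The collagen IV chains COL4A1 and COL4A2, substrates of gelatinases in the basement membrane, are neighbouring genes. COL4A2 was at 182, 192 and 199 CPM in scramble, 192, 202 and 203 in sh76 and 235, 253 and 233 in sh78, with all sh78 libraries above the rest. It rose in sh78 (log2 fold change 0.33 ± 0.06, edgeR adjusted p = 0.00617) and was higher in sh78 than in sh76 (0.27 ± 0.06, edgeR adjusted p = 0.0235). The second call was lost without any one of 5 libraries, sh76 replicates 1, 2 and 3 and sh78 replicates 1 and 2 (edgeR adjusted p 0.0508 to 0.0926). COL4A1 was at 101 ± 7.06, 92.8 ± 10.5 and 125 ± 8.94 CPM (SD, n = 3), and was higher in sh78 than in sh76 (0.42 ± 0.09, edgeR adjusted p = 0.0153), a call lost without sh76 replicate 1 (edgeR adjusted p = 0.05) or sh78 replicate 2 (0.0718). COL4A1 differed by 0.30 between sh78 and scramble (edgeR adjusted p = 0.0735, or 1.21e-05 with the block, and 0.0397 without sh76 replicate 1).

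EPCAM, an epithelial adhesion protein shed by ADAM17, was at 307, 322 and 321 CPM in scramble, 280, 285 and 279 in sh76 and 265, 244 and 247 in sh78. The 3 groups did not overlap. It fell in sh78 (log2 fold change −0.33 ± 0.06, edgeR adjusted p = 0.00386), and in sh76 the value was −0.17 ± 0.06 (edgeR adjusted p = 0.119, or 0.00281 with the block). Between the hairpins it differed by −0.16 ± 0.06 (edgeR adjusted p = 0.152, or 0.00661 with the block). EPCAM is also 1 of the 9 epithelial markers. Their summed level, led by KRT8 and KRT18, was lower in sh78 than in scramble, while PAX8 and KRT7 were not lower.

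**Figure D5:**
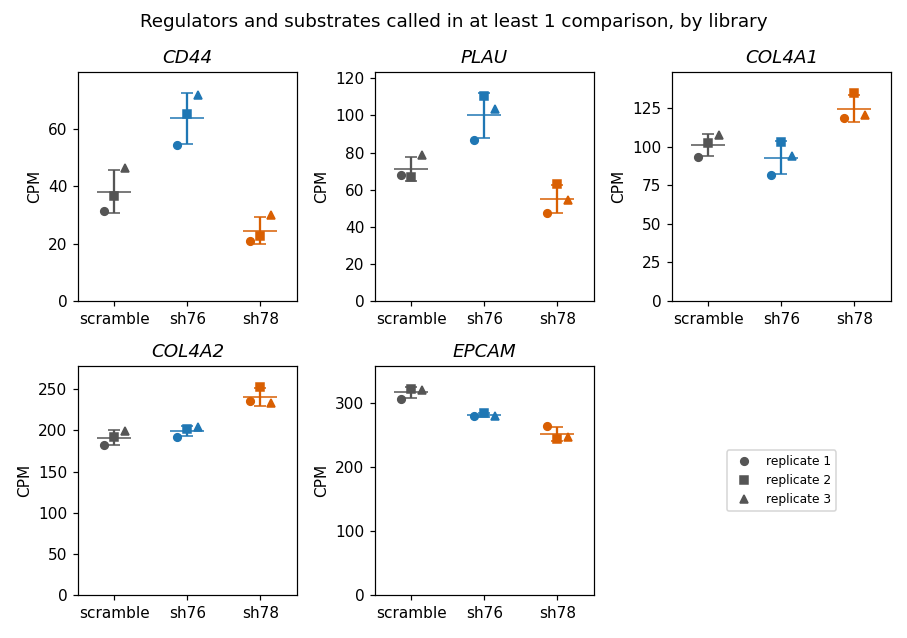
CPM in each library for the 5 regulators and substrates called without the block in at least 1 comparison, with the group mean and SD (horizontal bar and whiskers, n = 3). CD44 and PLAU are highest in sh76 and lowest in sh78, COL4A1 and COL4A2 are highest in sh78, and EPCAM is lowest in sh78.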

How the data were processed

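RNA was measured in 9 OVCAR3 libraries, 3 per group. Per the labels' protocols, mRNA was purified on poly-T beads and libraries were non-directional. The submitters' processing notes name HISAT2 2.0.5, featureCounts 1.5.0-p3 and hg38, without role or order. The authors deposited whole-number counts per gene and FPKM values, which they scaled by gene length and a library size. Worked back from the counts, that size was 98.1% to 103% of the total count of a library. Coordinates are those of the deposited counts and equal GENCODE 29 (GRCh38) for all 58735 genes. No column was left out.

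The test on counts was that of edgeR 4.0.16 under R 4.3.3 (quasi-likelihood, robust, TMM factors, 1 coefficient per group over 9 libraries, 6 residual degrees of freedom). The low-count filter was filterByExpr, set to a count of at least 10 and a total of at least 15. Benjamini-Hochberg adjustment covered all 17023 genes kept, 13709 of them protein-coding. Standard errors are the size of the log2 fold change divided by the root of F. The common biological coefficient of variation was 10.4%. CPM are counts over TMM-scaled library sizes. The script was tested on simulated counts drawn without any spread shared by same-numbered libraries. That run therefore does not cover the pairing seen in these data. FPKM gave levels between genes and, as log2(FPKM + 1) or log2(FPKM + 0.1) with limma 3.58.1, alternative tests.

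Replicate numbers come from the labels. Deviations from group means correlated at 0.142 to 0.391 in the 9 pairs of libraries with the same number and at −0.31 to 0.064 in the 18 others, so the numbers were taken to pair the libraries. The fit with the number as a block had 4 residual degrees of freedom. Other alternatives were DESeq2 1.42.0, RLE factors, no filter (36087 genes) and leaving out each library. A fit on numbers 2 and 3 only was chosen after seeing the data.

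Named were members called in any comparison with or without the block, the 3 highest in FPKM of each family and 10 well-known members whatever their values. Regulators and substrates were named when called without the block, and VCAN, L1CAM and ALCAM were added as examples of calls with it. Members and lists were chosen with earlier results of these data known. For named genes with over 10% of their exon bases shared with a gene on the opposite strand, the share is given, and their values are uncertain.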

Additional observations from a re-analysis of the deposited data

Results flagged for a closer look

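The 2 hairpins against the same gene gave different values for 7 members by the direct test of sh78 against sh76 (edgeR adjusted p under 0.05). The log2 fold changes were 2.41 for MMP16, 1.91 for ADAMTS12, 1.19 for ADAMTS8, 1.17 for ADAMTS9, 0.75 for MMP24, 0.29 for MMP15 and −0.31 for ADAM9. MMP16 and ADAMTS12 passed the count filter mainly through sh78. GPX3 itself was at 55.8 ± 0.851 CPM in sh76 and 30.6 ± 4.01 in sh78 (SD, n = 3). The part of this difference in GPX3 in the member differences was not tested. Groups of 3 libraries are too small for the outlier check, so no single library was examined that way.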

How the results depend on the processing

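Of 105 fold changes of named genes (VCAN, L1CAM and ALCAM not counted), 21 were called. All 21 kept their sign in each alternative run, and 11 kept their call in each. Of those not called, 32 were called in some alternative, 25 of them only with the replicate block, and no called value reversed.

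The member count in sh76 against scramble, 1, became 2 with DESeq2, with RLE factors, without the filter and on numbers 2 and 3 only, and 9 with the replicate block. In sh78 against scramble, 2 became 11 with the replicate block. Between the hairpins, 7 became 2 with limma on FPKM at either pseudocount and 17 with the block. Members called alike by both hairpins went from 0 to 1 with the block, and stayed at 0 when any library was left out. Leaving out each library gave 1 to 2, 2 to 2 and 2 to 7 members in the 3 comparisons.

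Regulators and substrates in sh76 against scramble, 2, became 0 with limma on FPKM at either pseudocount (8 at an unadjusted p under 0.05), 15 with the block and 7 on numbers 2 and 3 only. In sh78 against scramble, 2 became 6 without the filter and on numbers 2 and 3 only, and 14 with the block. Between the hairpins, 4 became 2 with limma on FPKM at either pseudocount and 17 with the block. Leaving out each library gave 0 to 3, 2 to 5 and 2 to 4. The count was 0 without scramble replicate 1, scramble replicate 2, sh76 replicate 2 or sh76 replicate 3 (8, 6, 7 and 7 at an unadjusted p under 0.05), 5 without sh76 replicate 1 in sh78 against scramble, and 2 without sh76 replicate 1 between the hairpins.

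The cause of these changes was not tested, other than that the block removes the spread shared by same-numbered libraries and that leaving out a library leaves fewer samples. Low depth limits ADAMTS12, MMP16 and ADAM12, with at most 34, 39 and 26 counts in a library, and 27 members could not be tested.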

Other observations

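MMP25, a lipid-anchored MMP of leukocytes, shares 35.2% of its exon bases with MMP25-AS1 on the other strand and had 89 counts over all libraries against 356 for the antisense gene. MMP9 shares 18.4% with SLC12A5-AS1 (117 against 188 counts), so the levels of both are uncertain in libraries without strand. MMP19 shares 17.4% with TMEM198B and had 7 counts over all libraries, against 1613 for TMEM198B.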
